A study of Homo sapiens with 4 samples.

Results

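KYSE30, an established human esophageal squamous cell carcinoma (ESCC) line, was compared with and without l-lactate by PAS-seq, which reads the 3′ ends of polyadenylated RNA. The comparison held 2 of the 4 libraries of the series, 1 from cells kept in 20 mM l-lactate over 24 h and 1 from PBS-treated control cells, and was chosen by sample, not by any measured value. The other 2 libraries, from TE-1, a second ESCC line given the same treatments, served only as a check. The labels name no genetic change in any of the cells. The cell line tag of the KYSE30 control reads KYSE32, whereas its title begins K30, read here as KYSE30, and the tag of the TE-1 control also names another line.

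With 1 library on each side there was no replicate check and no test. Intervals are 95% intervals of counting error, exact for ratios (taken without the pseudocount used for the log2 ratio itself) and Wilson for shares, and cover neither variation between cultures nor amplification. The values are TPM, the tags of a poly(A) site cluster (PAC) scaled to the size of its library, with no correction for transcript length, so each level is compared between libraries and not between genes. The l-lactate library held 7174991 tags and its control 7425554, and 1 tag is worth 0.139 and 0.135 TPM. Together they listed 15645 PACs, 14444 of them in both libraries, and 14874 of them fell on 10660 GENCODE genes. In bulk RNA, a change in the make-up of a culture and a change of RNA per cell cannot be told apart.

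An mRNA ends where the nascent transcript is cut and a poly(A) tail is added, usually downstream of the hexamer AAUAAA or, less often, a variant such as AUUAAA, here written in DNA letters. A gene with several such sites can yield 3′ UTRs of different length, and a site inside an intron can give a shortened transcript. Lactate, the end product of glycolysis, leaves and enters cells with protons through monocarboxylate transporters, is oxidised to pyruvate by lactate dehydrogenase, and can be attached to lysines of proteins (lactylation).

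The cells carried the marks of squamous epithelium. Of 27 genes of basal squamous epithelium, 19 reached a mean of 10 TPM, among them SOX2 (168 TPM in the control, 220 with l-lactate) and TP63 (24.2 and 32.6 TPM). Of 34 genes of squamous differentiation 15 did, among them KRT13 (728 and 684 TPM). One of 8 blood cell genes was listed, CD68 at 5.39 and 3.48 TPM, and 1 of 9 stromal and vessel genes, CDH5 at 16.2 and 11.2 TPM. None of 8 glandular and neural genes was listed.

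The 3′ ends of the genes on which the gene results turn are shown first, so that each value below can be tied to its site. Each run is the 30 bases that end at the dominant site, the position with most tags, on the strand of the gene in GRCh38, with AATAAA or ATTAAA in capitals. Either hexamer stood in this window at 79.5% of the KYSE30 PACs.
TFRC, chr3:196049284-196049313, minus strand: gtctgatttAATAAAatacttaaacactga
FGFBP1, chr4:15935583-15935612, minus strand: taatggtAATAAAactctgggtgtttttca
KRT6A, chr12:52487184-52487213, minus strand: tgtttgcaattgctaAATAAAgcagattta
EREG, chr4:74388485-74388514, plus strand: gtaaacggtttttATTAAAgatgctatgga
IGFBP3, chr7:45912361-45912390, minus strand: atttataaatagtaAATAAAgtttttacca
CCN2, chr6:131948180-131948209, minus strand: tagttgaaAATAAAgtgtatattttttcta
All 6 sites lie in annotated 3′ UTRs, and each of these genes except TFRC had a single listed PAC. In TFRC the site shown held 241 of 245 TPM in the control and 445 of 449 TPM with l-lactate.

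Gene levels changed little. Among 7653 genes with a mean of at least 10 TPM in the KYSE30 libraries, the log2 ratio of l-lactate over control, with a pseudocount of 1 TPM, had a median of 0.00 and an SD across genes of 0.21. At 1.5-fold or more, 66 genes (0.862% of those measured) were higher and 62 (0.81%) were lower, of which 6 and 4 differed at least 2-fold. The counting interval left out no change in all 66 and all 62, an outcome that the filter on level and the fold left little room to miss. Without regard to size, this interval lay above no change in 1026 genes (13.4%) and below it in 923 (12.1%). The ratios were wider at low levels, with an SD of 0.29 across the 1843 genes of 10 to 20 TPM and 0.14 across the 768 genes above 200 TPM. Of 7425 protein-coding genes measured, 63 were past 1.5-fold higher and 54 lower. Of 216 lncRNA genes measured, 3 were past it higher and 7 lower.

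**Figure D1:**
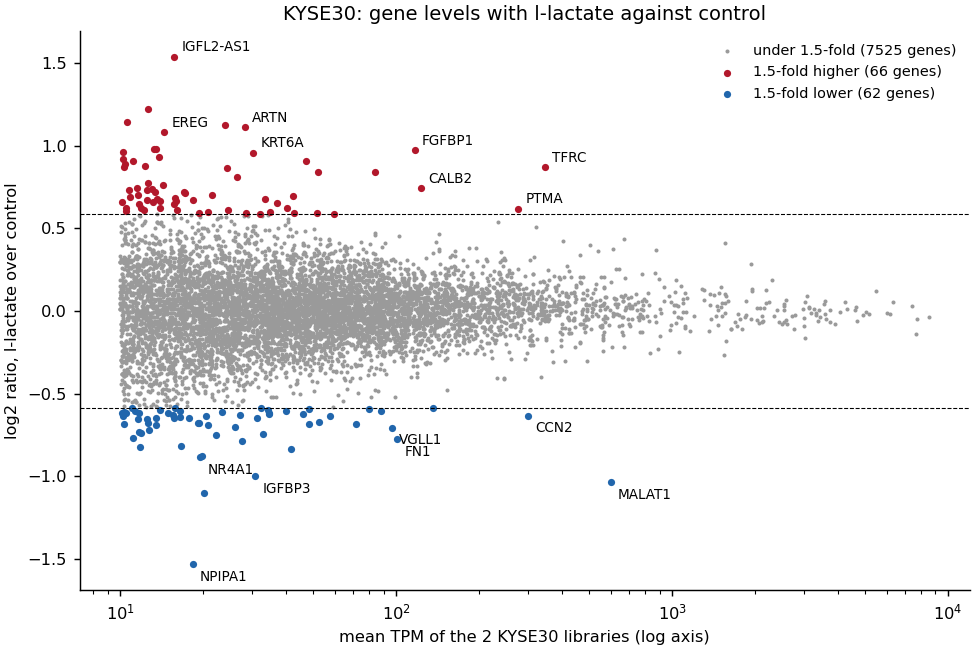
Log2 ratio of l-lactate over control in KYSE30 (vertical axis) against the mean TPM of the 2 libraries (horizontal log axis) for 7653 genes, each point a gene; dashed lines mark 1.5-fold. The 66 higher and 62 lower genes lie mostly at low TPM, and TFRC, PTMA, CCN2 and MALAT1 stand apart at higher TPM.

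The gene with the firmest rise among abundant genes was TFRC, the transferrin receptor that brings iron into cells. It had 245 TPM in the control and 449 TPM with l-lactate, 1.83-fold (log2 ratio 0.87, interval 0.79 to 0.96). In TE-1 it had 286 TPM in the control and 384 TPM with l-lactate (log2 ratio 0.42, interval 0.35 to 0.50), higher in both lines and past 1.5-fold in KYSE30. The other iron genes measured moved less: SLC11A2, an iron importer, had 49.3 and 65.6 TPM (log2 ratio 0.41), and FTH1, the ferritin heavy chain that stores iron, had 527 and 608 TPM (log2 ratio 0.21).

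Of the firmest rises, 3 were in ligands or in a protein that binds them. FGFBP1, which releases fibroblast growth factors from the matrix, had 78.5 TPM in the control and 155 TPM with l-lactate (log2 ratio 0.97, interval 0.84 to 1.13). ARTN, artemin, a ligand of the GDNF family, rose from 17.5 to 39.0 TPM (log2 ratio 1.11, interval 0.85 to 1.47). EREG, epiregulin, a ligand of the EGF receptor, rose from 8.89 to 19.9 TPM (log2 ratio 1.08, interval 0.73 to 1.61). PDGFA, a growth factor chain, went the other way, from 12.9 to 7.67 TPM (log2 ratio -0.68, and -0.25 in TE-1). ERBB3, a member of the EGF receptor family that binds neuregulins, fell from 96.3 to 63.4 TPM (log2 ratio -0.59). Its level in TE-1 was low and higher with l-lactate, at 5.87 and 10.98 TPM. In TE-1 FGFBP1 was lower in level but also higher with l-lactate (15.01 and 20.2 TPM, log2 ratio 0.40), while ARTN had 2.02 and 2.60 TPM and EREG was not listed.

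Among the other rises, KRT6A, a keratin of activated squamous epithelium, rose from 20.3 to 40.4 TPM (log2 ratio 0.96), and reads of near-identical keratin 6 genes could be shared with it. PADI2, which turns arginine of proteins into citrulline, rose from 32.6 to 62.0 TPM (log2 ratio 0.91). CTSC, the lysosomal protease cathepsin C, rose from 14.7 to 33.2 TPM (log2 ratio 1.12). CALB2, the calcium-binding protein calretinin, rose from 91.6 to 154 TPM (log2 ratio 0.74). CMTR2, a methyltransferase of the mRNA cap, rose from 7.14 to 18.0 TPM (log2 ratio 1.22), and FHL1, a LIM-domain protein, from 6.20 to 14.9 TPM (log2 ratio 1.15). Both rest on few tags, 53 against 129 for CMTR2 and 46 against 107 for FHL1. In TE-1 CMTR2 had 3.945 and 7.44 TPM, FHL1 35.1 and 37.0 TPM (log2 ratio 0.07). CTSC had 1.54 TPM in the TE-1 control and was not listed with l-lactate, and KRT6A, PADI2 and CALB2 were not listed in TE-1.

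FAM199X (36.9 and 66.9 TPM), SLC35B4, a nucleotide sugar transporter (8.75 and 18.3 TPM), and USP24, a deubiquitinase (8.62 and 18.0 TPM), had log2 ratios between 0.84 and 0.98. In SLC35B4 part of the rise is a PAC of 3.35 TPM that the control did not list. The lncRNA IGFL2-AS1 had the largest ratio of all genes measured, 7.54 TPM in the control and 23.8 TPM with l-lactate (log2 ratio 1.54, interval 1.22 to 2.12), and was also higher in TE-1 (4.23 and 12.3 TPM). The lncRNA ENSG00000289850 rose from 59.8 to 108 TPM (log2 ratio 0.84).

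Among the firmest falls, IGFBP3, which binds insulin-like growth factors, had 41.5 TPM in the control and 20.2 TPM with l-lactate (log2 ratio -1.002, interval -1.33 to -0.75). FN1, fibronectin, fell from 128 to 74.1 TPM (log2 ratio -0.78, interval -0.94 to -0.63). CCN2, a matricellular protein and a target of YAP and TEAD factors, fell from 366 to 235 TPM (log2 ratio -0.64, interval -0.73 to -0.55). CST6, an inhibitor of cysteine proteases, fell from 88.7 to 54.8 TPM (log2 ratio -0.69). Other secreted or matrix genes went up: SPARC, a collagen-binding matrix protein, rose from 9.97 to 16.3 TPM (log2 ratio 0.66), COL4A6, a basement membrane collagen chain, from 8.62 to 14.6 TPM (log2 ratio 0.70), and LOXL1, which cross-links elastin, from 8.08 to 12.8 TPM (log2 ratio 0.61). The list of mesenchymal genes, which holds FN1 and SPARC, had 1 gene past 1.5-fold each way and a median of -0.00086 over 8. TE-1 gave little to set beside the 4 falls: FN1 had 2.60 TPM in its control and was not listed with l-lactate, IGFBP3 had 3.27 and 4.37 TPM, and CST6 was not listed. CCN2 had 73.1 and 81.9 TPM there (log2 ratio 0.16).

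NR4A1, an immediate early nuclear receptor, fell from 25.6 to 13.4 TPM (log2 ratio -0.89, interval -1.30 to -0.57) and had 105 and 106 TPM in TE-1. ARRDC3, an arrestin-like protein, fell from 53.5 to 29.5 TPM (log2 ratio -0.83), and was also lower in TE-1 (10.4 and 7.32 TPM). VGLL1, a cofactor of TEAD factors, fell from 120 to 73.2 TPM (log2 ratio -0.71), NEDD9, a scaffold of focal adhesions, from 41.5 to 24.4 TPM (log2 ratio -0.74), and VTCN1, an inhibitor of T cell activation, from 59.7 to 36.8 TPM (log2 ratio -0.68). The lncRNA DLGAP1-AS1 fell from 35.1 to 19.9 TPM (log2 ratio -0.79). In TE-1 NEDD9 had 8.08 and 9.92 TPM and DLGAP1-AS1 10.97 and 9.09 TPM, while VGLL1 and VTCN1 were not listed.

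Several of the 15 firmest falls carry a limit of their own. NPIPA1 (27.7 and 8.92 TPM), PSG8 (26.0 and 13.7 TPM) and MUC20 (27.7 and 12.4 TPM) belong to families of near-identical copies between which reads can be split. NPIPA1 had a single PAC, one with A-rich sequence after it and no hexamer before it, the kind described below for MALAT1, so the gene has no value without such PACs. SELENOP, which carries selenium in plasma, had 21.4 and 11.7 TPM, of which 4.58 TPM in the control lay at a coding-exon PAC not listed with l-lactate, and its 3′ UTR PAC alone had 16.8 and 11.7 TPM (log2 ratio -0.49), short of 1.5-fold.

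**Figure D2:**
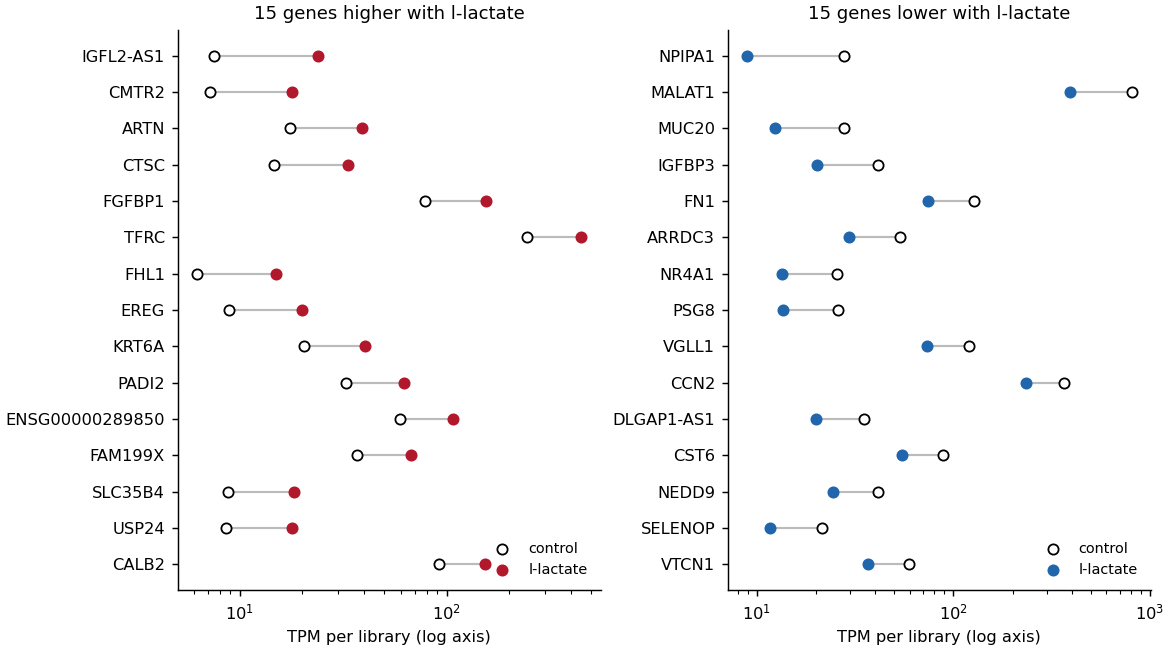
TPM in the control (open points) and with l-lactate (filled points) for the 15 firmest rises (left) and falls (right) in KYSE30, ranked by the end of the counting interval nearest to no change, on log axes. TFRC goes from 245 to 449 TPM and MALAT1 from 806 to 392 TPM, while most of the other genes lie below 200 TPM.

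MALAT1, a nuclear lncRNA, had 806 TPM in the control and 392 TPM with l-lactate (log2 ratio -1.04, interval -1.11 to -0.98). Its 5 PACs did not move alike, and their sequences differ. At the first 2 runs below, the dominant site is the tenth base, no AATAAA or ATTAAA stands in the 50 bases before it, and the 10-base stretch richest in A is in capitals. The third is the 30 bases before the site at the 3′ end, with AATAAA in capitals.
MALAT1 inside, chr11:65499733-65499762, plus strand: catacttttaGAAGAAAAAAgataaattta
MALAT1 inside, chr11:65502971-65503000, plus strand: tacaaaagcagaatAAAAGCGAAAagaaat
MALAT1 end, chr11:65506438-65506467, plus strand: attttgtgtAATAAAaatggagaagctcta
The first PAC fell from 523 to 191 TPM (log2 ratio -1.45), and the second was listed in the control at 23.6 TPM and not with l-lactate. The PAC at the 3′ end had 130 and 114 TPM (log2 ratio -0.18), and the one before it 121 and 86.7 TPM (log2 ratio -0.47). Leaving out PACs with A-rich sequence, MALAT1 had 259 and 201 TPM (log2 ratio -0.36), no longer past 1.5-fold. In TE-1 the whole gene went the other way, from 193 to 451 TPM (log2 ratio 1.22), and without these PACs from 83.9 to 107 TPM (log2 ratio 0.35).

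PACs of this kind, with at least 7 A in some 10-base window of the 20 bases after the site and neither hexamer in the 50 bases before it, made up 128 of 15642 KYSE30 PACs (0.818%). The set was defined after its values were seen. Of the 74 with a mean of at least 5 TPM, 0 were 1.5-fold higher with l-lactate and 10 were lower, whereas 265 of the other 11365 were higher and 257 lower. In TE-1, 10 of 59 were higher and 3 lower, beside 207 higher and 117 lower of the other 9308. The median TE-1 log2 ratio was 0.01 in the 59, of which 30 were above 0, and 0.04 in the others. Several A-rich PACs lie in coding exons of very abundant mRNAs, and 4 are shown with the dominant site as the tenth base and the A-rich stretch in capitals.
HSP90AB1, chr6:44250424-44250453, plus strand: gcggtaaggataagAAGAAGAAAActaaga
HSP90AB1, chr6:44251115-44251144, plus strand: acctttttgagaacAAGAAGAAAAagaaca
HSP90AA1, chr14:102083084-102083113, minus strand: agaagcaggaagagAAAAAAACAAagtttg
RPS24, chr10:78037236-78037265, plus strand: aaggaacgcaagaacagAATGAAGAAAgtc
HSP90AB1 end, chr6:44253850-44253879, plus strand: gtatgcaaAATAAAgaatatgccgttttta
The last run is the 30 bases before the site at the end of HSP90AB1, for comparison. HSP90AA1 and HSP90AB1 encode the cytosolic HSP90 chaperones, and RPS24 a protein of the small ribosomal subunit.

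The HSP90AA1 site had 15.1 TPM in the control and 1.67 TPM with l-lactate, and in TE-1 2.12 and 25.4 TPM. The first HSP90AB1 site had 20.7 and 13.7 TPM in KYSE30 and 11.1 and 18.9 TPM in TE-1, and the second was listed only in the KYSE30 control (8.75 TPM) and in TE-1 with l-lactate (12.04 TPM). The RPS24 site had 15.1 and 6.13 TPM in KYSE30 and 7.02 and 21.6 TPM in TE-1. The ends of the same mRNAs hardly differed: the HSP90AB1 end had 2473 and 2569 TPM, and the RPS24 end 3433 and 3296 TPM. Another A-rich site of HSP90AA1 with many more tags did not follow the pattern (156 and 170 TPM). A-rich coding-exon sites of EIF5B, SEC62, ANKHD1 and TCOF1 went the other way, slightly higher in KYSE30 and lower in TE-1. The EIF5B site had 7.68 and 9.06 TPM in KYSE30 and 16.1 and 5.31 TPM in TE-1. Of 13 A-rich coding-exon PACs with a mean of at least 5 TPM, 8 were lower to any extent in KYSE30. What moved the A-rich sites, and whether oligo(dT) pairing inside transcripts has a part in it, was not tested.

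PACs listed in only 1 of the KYSE30 libraries held 0.212% of the listed TPM with l-lactate and 0.211% in the control. At 3 TPM or more, 450 PACs (2.88% of those listed) were gained, that is listed with l-lactate and not in the control, and 445 (2.84%) were lost. Medians were 3.48 and 3.50 TPM. The authors removed single-site PACs below 3 TPM, so that a PAC not listed may still have been used, and most gains and losses stand just above that limit. Only 34 gained and 33 lost PACs had 5 TPM or more.

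The gained and lost PACs were spread over the places as follows. Gained PACs lay in 3′ UTRs in 280 cases (62.2%, interval 57.7% to 66.6%) and lost PACs in 236 (53.03%, interval 48.4% to 57.6%). Introns held 63 gained and 52 lost PACs, intergenic regions 53 and 74, and exons of noncoding transcripts 51 and 67. Coding exons held 2 gained and 15 lost PACs. Of the 14444 PACs listed in both libraries, 81.6% lay in 3′ UTRs, 4.57% in introns, 6.75% between genes, 6.63% in noncoding exons and 0.408% in coding exons. One of the hexamers stood in the 50 bases before the site in 76.0% of the gained PACs (interval 71.8% to 79.7%), in 80.0% of the lost PACs (interval 76.0% to 83.5%) and in 84.2% of those listed in both libraries. UGUA, the motif bound by the cleavage factor NUDT21 (TGTA in DNA, sought on the transcribed strand in the 100 bases before the site), stood before 56.7% of the gained, 52.1% of the lost and 57.7% of the shared PACs.

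The gained PACs with most tags were an intergenic one on chromosome 15 with its dominant site at 71340604 on the minus strand (11.2 TPM), and intronic PACs of UGCG, a synthase of glucosylceramide (9.76 TPM), and ANKLE2, a protein of the nuclear envelope (7.81 TPM). The intergenic site was listed in both TE-1 libraries, at 16.9 TPM in the control and 9.56 TPM with l-lactate. Next came 3′ UTR PACs of CCNJL, a cyclin J-like protein (7.11 TPM), and CD2AP, an adaptor of the actin cytoskeleton (6.97 TPM), and an intronic PAC of MCCC1, a subunit of a carboxylase of leucine breakdown (6.83 TPM). The intronic PACs of UGCG and MCCC1 are shown because both carry a hexamer in the usual place and are listed in none of the other 3 libraries.
UGCG intron, chr9:111928305-111928334, plus strand: ctttaaAATAAAatacaatgtgttctagta
MCCC1 intron, chr3:183078807-183078836, minus strand: tgtgagtccAATAAActtctttcttttgta
The lost PACs with most tags were the 2 inside MALAT1 (23.6 and 8.48 TPM), a 3′ UTR PAC of NIPSNAP3A (9.43 TPM), the coding-exon PAC of HSP90AB1 (8.75 TPM), a coding-exon PAC of HSPD1, the mitochondrial HSP60 chaperone (7.27 TPM), and 3′ UTR PACs of FKBP11 and HEXA and a coding-exon PAC of TM9SF1 (7.27 TPM each).

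Of the 15 lost coding-exon PACs, 7 were A-rich as above and 4 had a hexamer. They lay in HSP90AB1, with 2 PACs, and in HSPD1, TM9SF1, MYO6, NCL, EIF5B, SELENOP, EZR, PABPC1, RPL6, NCOR1, SMC4, ELMOD2 and NPM1. In TE-1, 9 of the 15 were listed with l-lactate only, 3 in both libraries and 0 in the control only. Of all 445 lost PACs, 36 were listed there with l-lactate only, 84 in both libraries and 27 in the control only. Of 30 coding-exon PACs with a mean of at least 5 TPM, 0 were 1.5-fold higher and 7 were lower, beside 2.32% higher and 2.33% lower of all 11439 such PACs. This holds for few tags, since coding exons took 0.0764% of the listed tags in the control and 0.0626% with l-lactate.

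**Figure D3:**
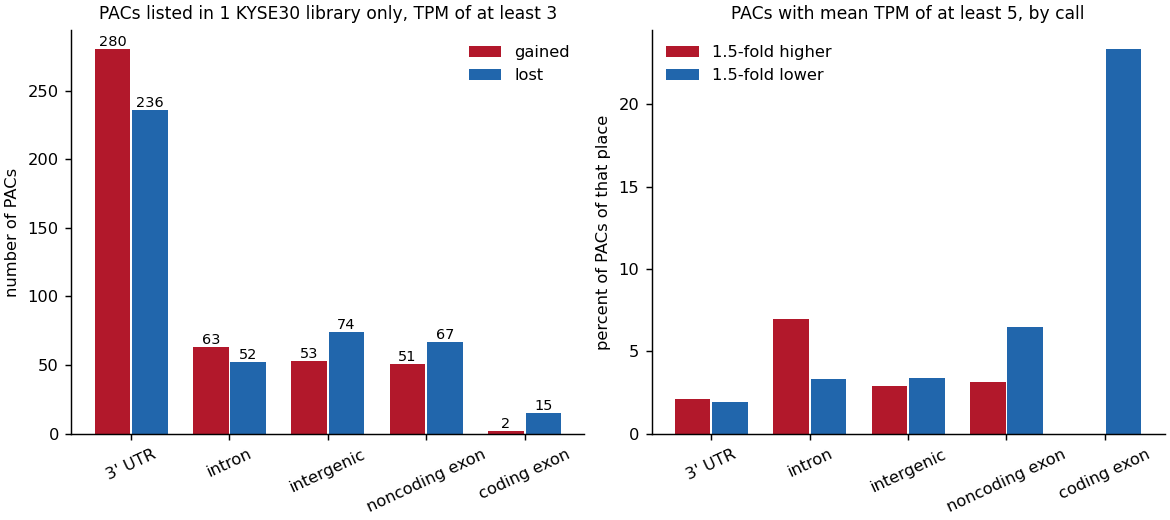
Left, number of PACs gained and lost with l-lactate in KYSE30 by place (bars with their counts); right, percent of PACs of each place that were 1.5-fold higher or lower among PACs with a mean of at least 5 TPM. Coding exons hold 2 gained and 15 lost PACs, and 0 of 30 higher against 7 lower.

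The tags were divided among the places almost as in the control. 3′ UTRs held 92.37% of listed tags in the control and 92.52% with l-lactate, a difference of 0.149 percentage points (interval 0.121 to 0.177). Introns held 1.39% and 1.41%, a difference of 0.0218 percentage points, and intergenic regions 3.01% and 2.94%, a difference of -0.0625 percentage points. Each difference is larger than the counting error, and with 1 library a side no other error could be estimated. Placed by the midpoint of each PAC in place of the dominant site, the differences were 0.292, 0.0430 and -0.211 percentage points. Among PACs with a mean of at least 5 TPM, 21 of 301 intronic PACs were 1.5-fold higher and 10 lower, 18 of 617 intergenic PACs were higher and 21 lower, and 18 of 573 PACs in noncoding exons were higher and 37 lower.

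The intronic share of the tags of a gene could be followed in 429 genes with at least 10 TPM in both libraries. It was higher by 10 percentage points or more in 36 genes (8.39%) and lower in 18 (4.2%), with a median difference of 0.28 percentage points. In 14 and 9 of them the intronic PAC was not listed on one side and was taken as 0, as in WNK2, ZNF605 and GULP1, higher, and BICRAL, TBC1D31 and TBCK, lower. With only PACs listed in both libraries, 15 genes were higher and 9 lower of 343.

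Among those, STAU2, which binds double-stranded RNA, went from 19.6% to 52.4% (intervals 14.004% to 26.7% and 43.7% to 61.0%). SEC14L1, a lipid-binding protein, went from 31.6% to 55.4%. Its intronic PAC is shown for its hexamer and was not listed in TE-1.
SEC14L1 intron, chr17:77201017-77201046, plus strand: gtgttAATAAAgggacttttcaatgactta
BET1, a SNARE of transport from the endoplasmic reticulum to the Golgi, went from 37.3% to 59.7%, with its 3′ UTR PAC at 22.0 and 11.8 TPM and the intronic PAC at 13.1 and 17.6 TPM. In TE-1 the same share was 29.4% and 46.4%. ARIH2, a ubiquitin ligase, went from 42.2% to 62.9%, and in TE-1 from 47.6% to 57.9%, although its 3′ UTR PAC is one of the A-rich PACs described above. On the lower side PPARG, a nuclear receptor of lipid metabolism, went from 50% to 26.5%, DNM2, a dynamin, from 76.7% to 60.9%, and FBXL5, the iron-sensing subunit of a ubiquitin ligase, from 70.9% to 58.0%. In FBXL5 the intronic PAC fell from 54.4 to 35.0 TPM while the 3′ UTR PAC had 22.4 and 25.4 TPM, and its TE-1 share was 37.9% and 26.3%.

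Intergenic PACs within 5000 nt past the end of a gene were set against the PACs of that gene in 200 genes. Their share was higher by 10 percentage points in 3 genes (1.5%) and lower in 4 (2%). In LINC00958, a lncRNA gene, it went from 37.8% to 52.6% (intervals 34.5% to 41.2% and 49.2% to 56.1%), mostly at a PAC 1755 nt past the annotated end with 36.8 and 51.0 TPM, and in TE-1 from 30.1% to 35.7%. In SLC16A3, the lactate exporter MCT4, it went from 32.99% to 44.6% (intervals 28.5% to 37.8% and 40.0% to 49.4%). That PAC lies 30 nt past the annotated end and had 17.2 and 26.6 TPM, while an intronic PAC had 29.2 and 26.8 TPM. In TE-1 the SLC16A3 share hardly differed, at 19.7% and 20.7%. In STRN the site was not listed in the control. In EXO5, NMRAL1 and ZNF160 the site was not listed with l-lactate, and in MELK, a mitotic kinase, the share went from 31.3% to 15.1%.

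Distal 3′ UTR usage, the share of the 3′ UTR tags of a gene at its most distal PAC, was higher by 10 percentage points in 53 of 1636 genes (3.24%) and lower in 97 (5.93%), with a median difference of -0.56 percentage points. The counting intervals of both libraries lay apart in 23 and 54 of them. The 1636 genes had at least 2 PACs in 3′ UTRs, each above 5 TPM in at least 1 KYSE30 library. A PAC high in only 1 library could thus enter through that library alone, which favours large shifts. Shifts inside a PAC are not seen by this measure, and FDX1, with a single listed PAC, is not among these genes. The paper scored shifts within joined clusters and reported more lengthening than shortening events in KYSE30. The measures differ, so the counts here cannot be set against those events. The largest rises were in FARP1, whose distal PAC was not listed in the control (52.9% with l-lactate), PNPT1, a mitochondrial RNA-degrading enzyme (25.6% and 54.0%), IFT80, a protein of cilia (18.7% and 44.2%), RWDD4 (51.2% and 70.5%), MFSD8 (45.4% and 63.6%) and MTAP, an enzyme of methionine salvage (47.4% and 65.5%). The largest falls were in ZNF721 (100% and 48.6%), IFNAR1, a subunit of the type I interferon receptor (100% and 52.3%), CCNJL (100% and 61.1%), FAM76A (100% and 62.2%), YAF2, a polycomb protein (50% and 17.4%), and CREM, a cAMP-responsive factor (68.6% and 40.3%). In 4 of these falls the control listed no other 3′ UTR PAC, and at these levels each gene rests on 45 to 145 tags a library. The 3′ UTR level itself had a median log2 ratio of 0.00 in the 53 genes, 0.10 in the 97 and 0.01 in all 1636.

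Gene functions were then read from 47 lists of genes with at least 1 member measured, beside the shares of all genes given above. In 33 lists no member was past 1.5-fold. List medians ran from -0.15 to 0.26 on the log2 scale, with 36 of 47 within 0.1 of no change, 7 above and 4 below. Intervals are narrower in abundant genes, so a list of abundant genes has more members whose interval leaves out no change at the same size of difference.

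ERK feedback targets, which MAP kinase signalling switches on, had the highest median, 0.26 over 13 measured genes, with 8 intervals above no change and 1 below. EREG was past 1.5-fold, and PHLDA1 (190 and 276 TPM, log2 ratio 0.54, but -0.16 in TE-1), SPRY1, an inhibitor of the pathway (45.5 and 60.6 TPM, log2 ratio 0.41), and AREG, amphiregulin (27.2 and 35.5 TPM, log2 ratio 0.37), were higher without reaching it. Over the 6 genes measured in TE-1 the median was 0.22.

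Genes of the osmotic stress response had a median of 0.25 over 11 genes, with 5 intervals above and 1 below, and 0.19 in TE-1. AQP3, a channel for water and glycerol, rose past 1.5-fold (16.2 and 26.9 TPM, log2 ratio 0.70). SLC38A2, an amino acid transporter, had 471 and 605 TPM (log2 ratio 0.36, interval 0.30 to 0.43) and a log2 ratio of 0.33 in TE-1. SLC5A3, which imports myo-inositol, had 20.9 and 26.6 TPM (log2 ratio 0.34), and SLC6A6, which imports taurine, 11.6 and 14.1 TPM (log2 ratio 0.26).

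Genes of acid and ion balance had a median of 0.15 over 13 genes, with 5 intervals above and 0 below, and 0.01 in TE-1. SLC4A7, a sodium bicarbonate cotransporter, rose past 1.5-fold (11.9 and 19.7 TPM, log2 ratio 0.68). ATP1B3, a subunit of the sodium pump, had 70.2 and 97.7 TPM (log2 ratio 0.47).

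Heat shock chaperones had 12 of 15 intervals above no change and 0 below, with a median of 0.18, although none was past 1.5-fold. CHORDC1, a co-chaperone of HSP90, had 27.3 and 41.4 TPM (log2 ratio 0.58), HSPB1 765 and 986 TPM (log2 ratio 0.37), HSPA1A 234 and 277 TPM (log2 ratio 0.25) and STIP1 141 and 167 TPM (log2 ratio 0.24). The TE-1 median was 0.00. Proteasome subunits had 12 of 30 intervals above and 0 below with a median of 0.10, led by PSMB5 (213 and 261 TPM, log2 ratio 0.30). Basal squamous genes had a median of 0.16 over 19 genes, with 8 intervals above and 1 below, among them KRT6A, TP63 (log2 ratio 0.41) and SOX2 (log2 ratio 0.38). Squamous differentiation genes had a median of -0.10 over 15, with 2 above and 7 below, from CNFN (13.3 and 8.78 TPM, log2 ratio -0.55) to SPRR1B (41.7 and 59.2 TPM, log2 ratio 0.49). The TE-1 medians were 0.24 over 8 basal genes and 0.24 over 5 differentiation genes.

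Immediate early and AP-1 genes, which are transcribed within minutes of a stimulus, had the lowest median, -0.15 over 18 genes, with 0 intervals above and 8 below. NR4A1, CCN2 and DUSP1, a MAP kinase phosphatase (28.4 and 18.3 TPM, log2 ratio -0.61), were past 1.5-fold, and FOS had 380 and 288 TPM (log2 ratio -0.40). In TE-1 the median was 0.06 over 16 genes. Targets of p53 had a median of -0.14 over 15 genes, with 0 above and 4 below, led by BTG2, which restrains proliferation (106 and 69.4 TPM, log2 ratio -0.61), and CDKN1A, the inhibitor p21 (70.3 and 58.0 TPM, log2 ratio -0.27). Genes of G2/M and mitosis had a median of -0.13 over 28, with 1 above and 11 below and none past 1.5-fold. KIF11, a spindle motor, had 143 and 114 TPM (log2 ratio -0.32) and TOP2A, the mitotic topoisomerase, 129 and 106 TPM (log2 ratio -0.27). In TE-1 the G2/M median was 0.06.

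**Figure D4:**
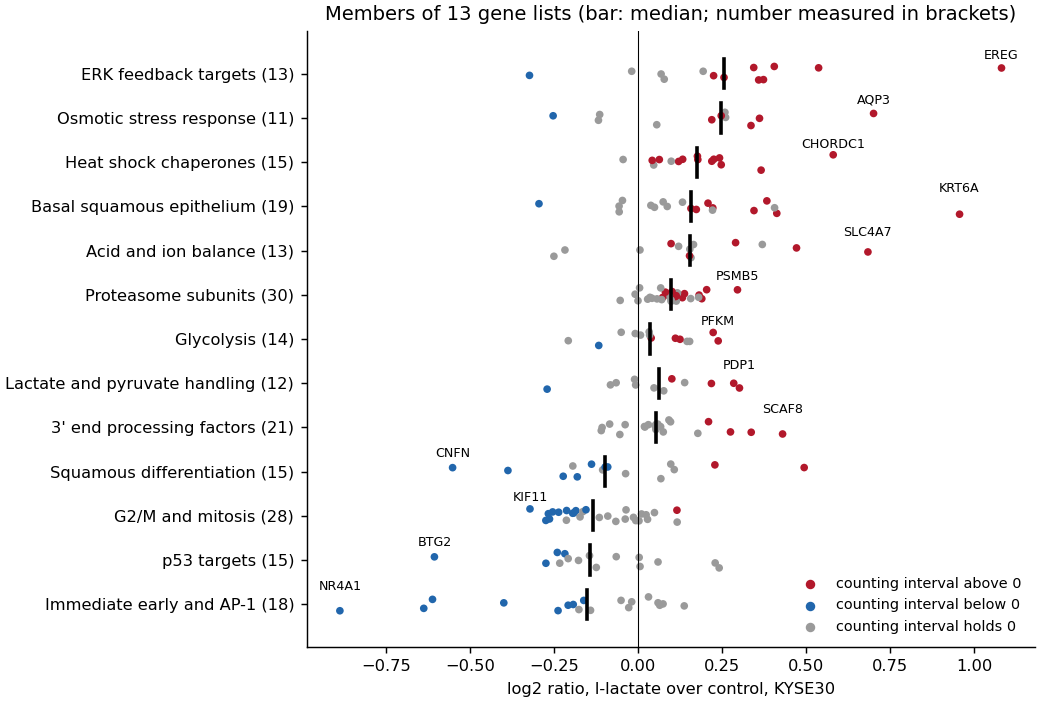
Log2 ratio of l-lactate over control in KYSE30 (horizontal axis) of each measured member of 13 gene lists, coloured by its counting interval, with the list median as a bar. Medians run from 0.26 for ERK feedback targets to -0.15 for immediate early genes, and those of glycolysis and lactate handling lie at 0.04 and 0.06.

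Genes that make and use lactate moved little. Of 14 glycolytic genes 0 were past 1.5-fold, with a median of 0.04 and PFKM (113 and 134 TPM, log2 ratio 0.24) and the glucose transporter SLC2A1 (288 and 336 TPM, log2 ratio 0.22) the highest. Of 12 genes of lactate and pyruvate handling 0 were past it, with a median of 0.06. LDHA, the subunit that favours lactate formation, had 1739 and 2119 TPM (log2 ratio 0.29, interval 0.25 to 0.32). PDP1 and PDK2, which switch pyruvate dehydrogenase on and off, had log2 ratios of 0.30 and -0.27. Lactylation writers and erasers had a median of -0.04 over 13 genes, hypoxia targets 0.10 over 11, the TCA cycle 0.05 over 14 and nuclear genes of oxidative phosphorylation 0.04 over 34.

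The 21 factors of 3′ end processing had a median of 0.05, with 4 intervals above no change and 0 below. SCAF8 had 48.3 and 65.5 TPM (log2 ratio 0.43), CPSF6, a subunit of cleavage factor I, 140 and 178 TPM (log2 ratio 0.34, interval 0.22 to 0.46), and CPSF2 45.7 and 55.5 TPM (log2 ratio 0.28). CPSF6 was past 1.5-fold in TE-1, at 168 and 283 TPM (log2 ratio 0.75, interval 0.66 to 0.84). NUDT21, the small subunit of cleavage factor I, had 87.5 and 90.7 TPM (log2 ratio 0.05). Among 13 genes of cuproptosis and lipoylation the median was 0.08, with FDX1, ferredoxin 1, at 29.5 and 37.6 TPM (log2 ratio 0.34, interval 0.09 to 0.62). In TE-1 FDX1 had 36.8 and 39.8 TPM (log2 ratio 0.11, interval -0.10 to 0.33). The paper reported lower FDX1 mRNA with l-lactate in a separate experiment, the opposite direction. What lies behind this difference was not tested. Of the 9 genes that the study follows 0 were past 1.5-fold in KYSE30, with log2 ratios from -0.06 (BTF3L4) to 0.34 (FDX1). Since the study took some of them from these samples, they are no independent check. Among the genes with most tags, RPLP1, RPS12, RPL39 and ACTG1 had log2 ratios between -0.14 and 0.05.

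TE-1 shares no library with KYSE30 and was used as a check. Over 6512 genes with a mean of at least 10 TPM in both lines the log2 ratios had a Spearman's rho of 0.20, a description across genes that are not independent. Of the 66 genes higher in KYSE30, 40 were measured in TE-1, and 30 of these were higher and 10 lower there, with 4 past 1.5-fold upward and 0 downward. Of all 6512 genes, 51 (0.783%) were past 1.5-fold upward in TE-1 and 22 (0.338%) downward. The TE-1 log2 ratio had a median of 0.03 over all 6512 genes and 0.21 over these 40. Among all 6512 genes, not split by their KYSE30 ratio, more were thus higher than lower in TE-1. The 4 were PTMA, the nuclear protein prothymosin alpha (218 and 335 TPM in KYSE30, 228 and 467 TPM in TE-1), OGFRL1 (6.60 and 13.8 TPM, and 11.9 and 23.6 TPM), RBM17, a splicing factor (28.6 and 45.6 TPM, and 17.6 and 34.5 TPM), and MAPK9, the kinase JNK2 (8.89 and 14.5 TPM, and 13.95 and 21.7 TPM). PTMA has many processed copies in the genome with which reads could be shared. Of the 62 genes lower in KYSE30, 26 were measured in TE-1, and 16 were lower and 10 higher, with 2 past 1.5-fold downward, GCAT and TMEM276, and 1 upward, MALAT1. The median TE-1 log2 ratio of these 26 was -0.08.

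**Figure D5:**
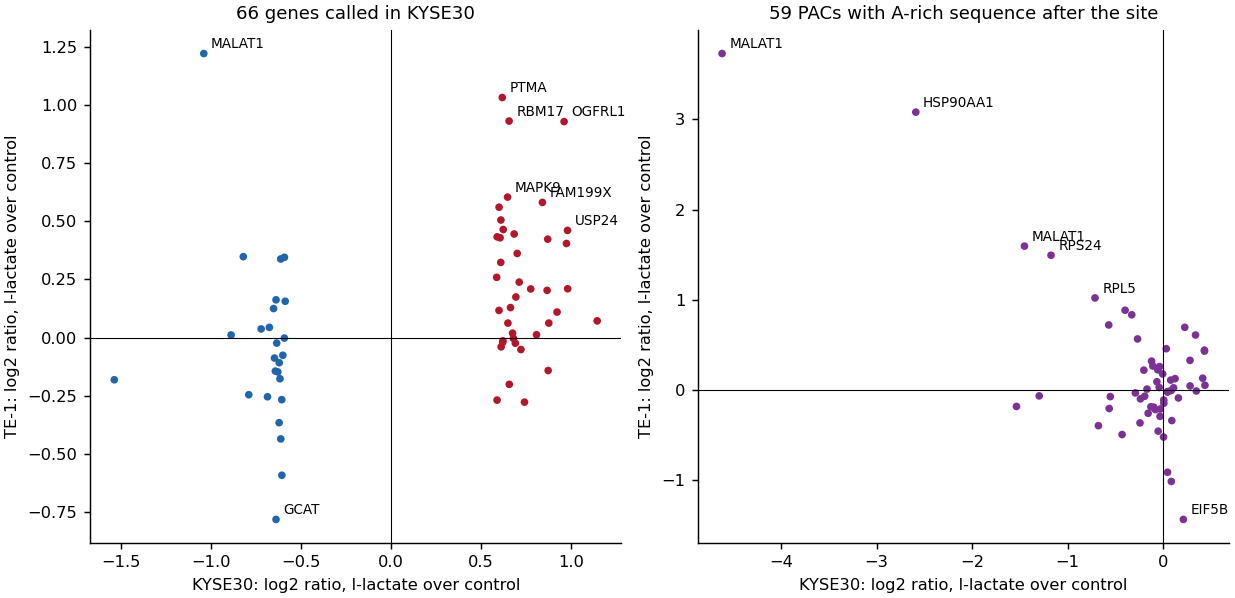
Log2 ratio of l-lactate over control in TE-1 (vertical axis) against KYSE30 (horizontal axis). Left, the 66 genes past 1.5-fold in KYSE30 and measured in TE-1, with MALAT1 alone past 1.5-fold in opposite ways; right, the 59 A-rich PACs with a mean of at least 5 TPM in both lines, where PACs of MALAT1, HSP90AA1, RPS24 and RPL5 are lower in KYSE30 and higher in TE-1.

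Base composition moved slightly with the ratios. Over 8604 PACs with a mean of at least 10 TPM, the log2 ratio and the GC content of the 100 bases before the site had a Spearman's rho of -0.12, and -0.29 in TE-1 over 7014. PACs with at most 28% GC had a median log2 ratio of 0.02 and those with at least 43% GC one of -0.04. The part of base composition in the results above was not tested.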

How the data were processed

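PAS-seq of KYSE30 cells, and of TE-1 as a check, was analysed from 1 deposited table per library. Per the study's methods, stranded reads were trimmed with FASTX and mapped by HISAT2 (GRCh38). CAGEr grouped sites into PACs, sites below 1 TPM and single-site PACs below 3 TPM were removed, and nearby PACs were joined. The TPM deposited by the authors are RPM values, scaled to the tags of the library. The spacing of low values gave the worth of 1 tag, by which 99.99% of the KYSE30 values are whole within rounding, and so the depth of each library. A count test was not run, since there are no replicates.

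PACs were joined between libraries by cluster, placed by the dominant site on GENCODE v44, and summed per gene on the same strand. PACs not listed were taken as 0. Log2 ratios used a pseudocount of 1 and a mean of at least 10 TPM. The genes named are the 15 rises and 15 falls past 1.5-fold, ranked by the end of the interval nearest to no change, up to 4 members of each list described with the largest ratios, up to 6 PACs or genes each way per PAC result, the genes the study follows and the 5 with most TPM. ERBB3, PDGFA, SPARC, COL4A6, LOXL1, the genes past 1.5-fold in both lines, and the genes named for A-rich or opposite PACs, for cell type or for PACs listed in both libraries were chosen after their values were seen. Some genes that the rule names are not reported here. The comparison, lists and rules were chosen with earlier results of these data known. Alternatives changed the pseudocount, fold, filter, scaling, PAC set and thresholds. The scripts were tested on simulated data. Python 3.11.15, NumPy, pandas, SciPy and pysam were used.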

Additional observations from a re-analysis of the deposited data

Results flagged for a closer look

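MALAT1 went opposite ways in the lines, with a log2 ratio of -1.04 in KYSE30 and 1.22 in TE-1, past 1.5-fold in each. With 1 library per group the difference between the lines was not tested. Among 9367 PACs with a mean of at least 5 TPM in both lines, 10 were past 1.5-fold in opposite ways and 49 in the same way. Of the 10, 8 were lower in KYSE30, and 5 of these were A-rich PACs, 2 in MALAT1 and 1 each in HSP90AA1, RPS24 and RPL5. The others were PACs of YIPF6, ERBB3, GABPB2 and SPRTN and the intergenic PAC on chromosome 15. This difference was not tested either.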

How the results depend on the processing

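No paired analysis was possible because each group holds 1 library, and for the same reason no library could be left out. The counts of 66 higher and 62 lower genes stayed within 1.5 times with a pseudocount of 0.1, median centring, TMM scaling, the interval added to the fold, only PACs listed in both libraries, only 3′ UTR PACs, and, chosen after the data were seen, without A-rich PACs. The added interval could hardly change them, given the filter on level and the fold. The counts were 31 and 20 with a pseudocount of 5, 6 and 4 at 2-fold, 152 and 159 from 5 TPM, 25 and 30 from 20 TPM, and 398 and 473 with no filter. Gained and lost PACs were 34 and 33 at 5 TPM. The difference in 3′ UTR tags was 0.120 percentage points among PACs of at least 5 TPM, and by the midpoint of each PAC it was 0.292, with 0.0430 for introns and -0.211 for intergenic regions. Intronic usage was higher in 74 and lower in 54 genes at 5 percentage points, 12 and 4 at 20, 15 and 9 with PACs listed in both, and 14 and 8 from 20 TPM. Usage past the gene end was higher in 13 and lower in 17 at 5 percentage points, higher in 0 at 20, and lower in 1 with PACs listed in both, 0 from 20 TPM and 0 within a shorter distance past the end. Distal usage was higher in 184 and lower in 310 at 5 percentage points, 3 and 11 at 20, and 13 and 49 above 10 TPM. The median of nuclear long noncoding RNAs was -0.18 with only 3′ UTR PACs, which leaves out most of these genes. All other list medians moved by less than the typical half-width of their members' counting intervals, and none of the 15 rises, the 15 falls and the 9 genes the study follows changed sign where it had a value. Neither check is strict. A change of pseudocount cannot alter the sign of a ratio, and the half-widths are large beside most list medians. NPIPA1 has no value without A-rich PACs, and the other named genes were not recomputed. The log2 ratio of IGFL2-AS1 was 1.201 with a pseudocount of 5, and that of MALAT1 -0.36 without A-rich PACs. Causes other than the settings themselves were not tested. Depth limits what can be said of low PACs: the lowest listed values rest on 8 tags.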
